A study of Rattus norvegicus with 12 samples.

Results

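The genes described here build the route from the endoplasmic reticulum (ER) to the Golgi apparatus. They were taken by name alone, as every probe set of the array whose single annotated gene symbol began with Copa, Copb, Cope, Copg, Copz, Ergic, Tmed, Sar1, or Arf or Sec and a number, or was Lman1, Lman2, Kdelr1, Kdelr2 or Kdelr3. Arfgap genes and pseudogenes were left out. That gave 85 probe sets of 56 genes, out of 31042 probe sets and 14217 singly named genes on the array. By role they fell into 8 coatomer genes, 10 genes of the COPII coat, 6 Arf GTPases, 10 p24 genes, 8 receptors of the compartment between ER and Golgi, 3 Sec22 genes, 8 genes of the translocon and signal peptidase and 3 Sec14-like genes. The Sec14-like proteins bind lipids and came in through their symbols, and they are given last.

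RNA of rat testis at embryonic day 16 was measured on 12 arrays, 2 in each of 6 groups, namely a control and a vinclozolin lineage in each of the generations F1, F2 and F3. Vinclozolin is a fungicide whose breakdown products block the androgen receptor. Founder mothers were injected into the peritoneum on days 8 to 14 of pregnancy, with 100 mg/kg/day of vinclozolin in one lineage and with only the carrier, sesame oil and DMSO, in the other. The F1 embryos were themselves in the injected mothers, while F2 and F3 embryos came from later matings without further injection, and the labels speak of matings between control lines for the later vinclozolin generations too. It is not clear whether vinclozolin lines were meant, so what the F2 and F3 vinclozolin groups descend from rests on their group names. No strain, allele or transgene was given, and each array held RNA pooled from about 10 testes. Whether both pools of a group drew on separate litters is not in the labels, so the p-values measure the spread between RNA pools.

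Newly made secretory and membrane proteins enter the ER through the Sec61 channel. COPII vesicles, started by the GTPase Sar1, carry them out of the ER, and COPI vesicles, started by Arf1, bring receptors and escaped ER residents back from the Golgi. Membrane receptors of the p24, Lman, Ergic and Kdelr families ride in both kinds of vesicle. In the fetal testis, Sertoli cells send out anti-Müllerian hormone by this route, and the same cells contribute to the basement membrane of the cords.

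Genes of this route include known targets of the unfolded protein response, in which Xbp1 and Atf6 raise the capacity of a loaded ER, so the promoters of the members were searched for its elements. Promoter sequence of RefSeq (rat build GRCr8, 250 bases before to 50 bases after each start site) was found for 50 of the 56 genes. The element TGACGTGG, a binding motif of these factors known as UPRE, was searched on both strands and stood in 6 of these 50 promoters (12%), against 0.637% of all 27457 rat promoters of the same length. The 6 windows follow, each 5′ to 3′ on the strand named, with the element in capitals and 12 bases on either side. They are shown because they are the only promoters of the set with this element, and because their genes are followed below.
Arf1, chr10:44514005-44514036, minus strand: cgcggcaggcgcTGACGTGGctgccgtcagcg
Arf4, chr16:1903415-1903446, plus strand: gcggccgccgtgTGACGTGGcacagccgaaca
Copa, chr13:87078886-87078917, plus strand: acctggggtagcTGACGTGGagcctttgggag
Copb1, chr1:177872827-177872858, plus strand: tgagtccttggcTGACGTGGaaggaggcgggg
Copb2, chr8:108040665-108040696, minus strand: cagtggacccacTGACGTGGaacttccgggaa
Kdelr3, chr7:112959519-112959550, minus strand: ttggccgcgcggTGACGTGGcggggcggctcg
Each window also holds the shorter motif CCACG on the other strand, as a part of the element. CCACG was found in 64% of the 50 promoters against 32.5% of all, CCAAT in 44.0% against 37.7% and the GC box GGGCGG in 70.0% against 34.9%. The ER stress element ERSE, CCAAT and CCACG with 9 bases between them, was in none of the 50 and in 0.0765% of all, and ERSE-II, ATTGG and CCACG with 1 base between them, was in none of the 50 and in 0.0546% of all. These matches describe letters only.

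The promoters of Ergic1 and Tmed9 are printed whole, since these genes had the highest log2 differences of the set in F1. Capitals mark CCAAT on the strand of the gene.
Ergic1, chr10:17131327-17131626, minus strand: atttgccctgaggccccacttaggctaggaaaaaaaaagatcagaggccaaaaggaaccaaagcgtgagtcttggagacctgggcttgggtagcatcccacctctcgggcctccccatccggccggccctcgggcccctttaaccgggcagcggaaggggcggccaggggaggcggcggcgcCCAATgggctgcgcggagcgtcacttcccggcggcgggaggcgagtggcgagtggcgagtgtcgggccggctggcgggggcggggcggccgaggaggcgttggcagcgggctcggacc
Tmed9, chr17:9039262-9039561, minus strand: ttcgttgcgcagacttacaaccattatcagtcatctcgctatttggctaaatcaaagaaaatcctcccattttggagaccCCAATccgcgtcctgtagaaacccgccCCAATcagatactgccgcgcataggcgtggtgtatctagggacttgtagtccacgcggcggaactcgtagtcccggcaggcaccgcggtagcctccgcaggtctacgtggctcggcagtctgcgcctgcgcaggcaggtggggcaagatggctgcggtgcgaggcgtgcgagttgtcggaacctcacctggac
The Ergic1 window had a GC content of 70.0% with 1 CCAAT and 3 GC boxes, and the Tmed9 window 58.7% with 2 CCAAT and 1 GC box. Neither held the UPRE.

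Across the series, the tissue showed the markers of fetal testis. The summed signal of 4 Sertoli markers was 5195.7 to 5698.4 on the control arrays and 5026 to 6197 on the vinclozolin arrays. On the F2 vinclozolin arrays it was 6056.5 and 6197. That of 6 Leydig probe sets was 11437 to 12150.3 in the control and 12275.5 to 14650 in the vinclozolin lineage. Of these 6, 1 was called higher and 1 lower in F1, 2 and 1 in F2, and 2 and 0 in F3. The probe sets for Xist and Foxl2 together stayed at 15.1 to 49.9. Kit was the sole germ cell marker that could be named of 5, with a signal of 61.9 to 80.1 on the control arrays and 2.5 to 61.4 on the vinclozolin arrays. The summed signal of 3 erythroid probe sets was 976 to 1329 in the control and 1412 to 1933 in the vinclozolin lineage. That of 7 interstitial and stromal probe sets was 8462 to 9029 and 7258 to 8388. These 7 went both ways, with 1 called higher and 3 lower in F1, 1 and 2 in F2, and 0 and 1 in F3. The secretory markers Scgb1d2 and Pbsn, of the prostate, together gave 0.8 to 8.3 on the control arrays, 11 to 28.9 on the F1 and F2 vinclozolin arrays and 219 to 254 on those of F3. Scgb1d2 was called higher in F2 (1.05 ± 0.22, adjusted p = 0.00531) and F3 (3.65 ± 0.22, adjusted p = 3.03e-07). The part of these markers in the results below was not tested. RNA quality moved with lineage as well. The signal ratio of the 5' to the 3' probe set of beta-actin, which falls as RNA is degraded or incompletely copied, was 0.453 ± 0.0177 (SD, n = 6) on the control arrays and 0.260 ± 0.0970 (SD, n = 6) on the vinclozolin arrays (exact permutation test, 2-sided, p = 0.00216). The vinclozolin pools had ratios of 0.171 ± 0.0299 in the F1, 0.233 ± 0.0196 in the F2 and 0.378 ± 0.0250 in the F3 generation (SD, n = 2 per group), so they ran in the same order as the numbers of differing probe sets below, and the part of RNA quality in them was not tested. The same ratio for Gapdh was 0.959 to 1.02 on the control arrays and 0.651 to 0.800 on the F1 and F2 vinclozolin arrays, but 1.02 and 0.970 on those of F3, within the control range. In RNA of a whole organ, fewer cells of a type and less RNA per cell cannot be told apart.

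Of the 85 probe sets, 78 of 54 genes were bright enough to test, and 63 of these had a mean signal over 100. The 7 that were too dim, with signals of 0.1 to 27.0, included the sole probe sets of Sec14l3 and Tmed6 and further probe sets of Arf2, Tmed7, Sec14l1, Sec61a1 and Sec63. A probe set was called when its Benjamini-Hochberg adjusted p, over all 21729 probe sets tested with limma, was under 0.05. All differences are vinclozolin minus control on the log2(signal + 16) scale with their standard errors.

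In F1, secretory route genes moved in both directions in the vinclozolin testes. Of 78 probe sets, 29 were called (37.2%), where 23.1% of all probe sets tested were called. Of these, 13 were higher, where 9.41% of all were higher, and 16 were lower, where 13.7% of all were lower. In F2, 16 were called (20.5%, against 14.3% of all), 7 higher (4.7% of all) and 9 lower (9.65% of all). In F3, 2 were called, where 3.11% of all were called. One of the pair was higher, Ergic1 (1.05% of all were higher), and one was lower, Sec31a (2.06% of all were lower). The median log2 difference of the 78 was 0.04 in F1, 0.08 in F2 and 0.00 in F3, against -0.01 for all probe sets in each generation. These medians lay near 0. With the arrays set to a common median the split was 22 higher and 15 lower in F1, 19 and 5 in F2 and 2 and 1 in F3, since that scaling moved the median of all probe sets to 0.10 in F1, 0.11 in F2 and 0.04 in F3.

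Single arrays moved these counts. The F1 count was 18 without F1-Control replicate 1. The F2 count was 6 without either F2 control array, 7 without F2-Vinclozolin replicate 2 and 29 without either F1 vinclozolin array. The F3 count was 6 without either F1 vinclozolin array and 1 without F3-Vinclozolin replicate 1 or any 1 control array except F3-Control replicate 1. Without that array or without F3-Vinclozolin replicate 2 limma called no member in F3, with 5 and 7 members at an unadjusted p under 0.05.

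The mean of the 3 generations called 37 of 78 (47.4%, against 33.3% of all), 16 higher (14.1% of all) and 21 lower (19.2% of all). With a common median the split was 30 and 14. That scaling raised the median of all probe sets in each generation, and whether the members' split differs from that of all was not tested. Without the F1 generation the mean called 15. All 6 vinclozolin arrays lay above all 6 control arrays for 10 probe sets, where 5.52% of all probe sets did so, and below them for 6, where 7.73% did. Ergic1 and 1 probe set of Sec31a were called with 1 sign in all 3 generations, where 1.22% of all were. Of the 29 probe sets called in F1 and the 16 called in F2, 13 were called in both, each with the same sign, which is 44.8% of the F1 and 81.2% of the F2 calls. Over all probe sets tested, 2095 were called in both, 41.7% of the F1 and 67.2% of the F2 calls, and 99.7% of them had the same sign. Whether the members' shares differ from these was not tested. The F1 and F2 comparisons share no arrays, but they share the variance estimate of each probe set, so their calls are not independent.

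**Figure D1:**
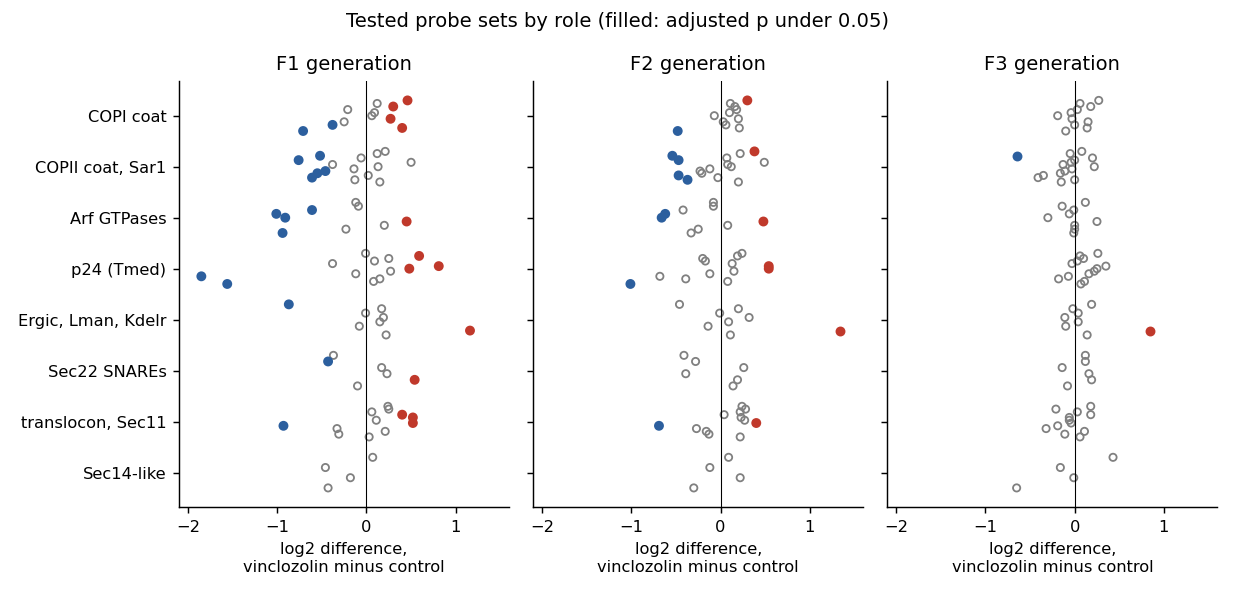
Log2 differences (vinclozolin minus control) of the tested probe sets by role and generation. Each point is a probe set, filled where it was called. Points lie on both sides of 0 in every role in F1, and in F3 only Ergic1 and 1 probe set of Sec31a are filled.

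Among the receptors of the compartment between ER and Golgi, Ergic1 rose in all 3 generations and Lman1 fell in F1. Ergic1 encodes a membrane protein that cycles between the ER and this compartment. Its signal was 279 and 275 on the F1 control arrays, 260.1 and 248 on those of F2 and 250.2 and 266 on those of F3. On the vinclozolin arrays it was 720.4 and 563 in F1, 697 and 638 in F2 and 418 and 536 in F3. Every vinclozolin array was above every control array, and the F3 arrays were the lowest of the 6. The differences were 1.16 ± 0.13 in F1 (adjusted p = 2.36e-05), 1.34 ± 0.13 in F2 (adjusted p = 2.4e-05) and 0.84 ± 0.13 in F3 (adjusted p = 0.00287), a 2.23-fold change in F1 on that scale. The F3 call was lost without F3-Control replicate 1 (0.80, adjusted p = 0.0667) and without F3-Vinclozolin replicate 2 (0.66, adjusted p = 0.0519). With the beta-actin ratio as a covariate the differences were 1.21, 1.37 and 0.85, none of them called (adjusted p = 1, 0.846 and 0.237). The groups accounted for 97.9% of the variance of that ratio. The median standard error of the members in F1 rose from 0.115 to 0.570 with it, so these values cannot tell lineage from RNA quality.

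Lman1 encodes a mannose-binding lectin that carries glycoproteins out of the ER. Its probe set gave 256 and 228 on the F1 control arrays, 242 and 268 on those of F2 and 233 and 208 on those of F3. The vinclozolin arrays read 158 and 97.9 in F1, 182 and 180.1 in F2 and 275 and 234 in F3. The vinclozolin arrays were below the controls of their generation in F1 and F2, and above them in F3. The differences were -0.87 ± 0.16 in F1 (adjusted p = 0.00123), -0.46 ± 0.16 in F2 (adjusted p = 0.069) and 0.19 ± 0.16 in F3 (adjusted p = 0.576), and without F1-Vinclozolin replicate 2 the F1 value was -0.57 (adjusted p = 0.00658). The remaining receptors had 1 tested probe set each and none was called in any generation. Kdelr1, Kdelr2 and Kdelr3 return escaped chaperones to the ER, Lman2 is a second lectin of the route, and Ergic2 and Ergic3 are partners of Ergic1. Their differences ran from -0.14 for Lman2 to 0.32 for Ergic3, both in F2.

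**Figure D2:**
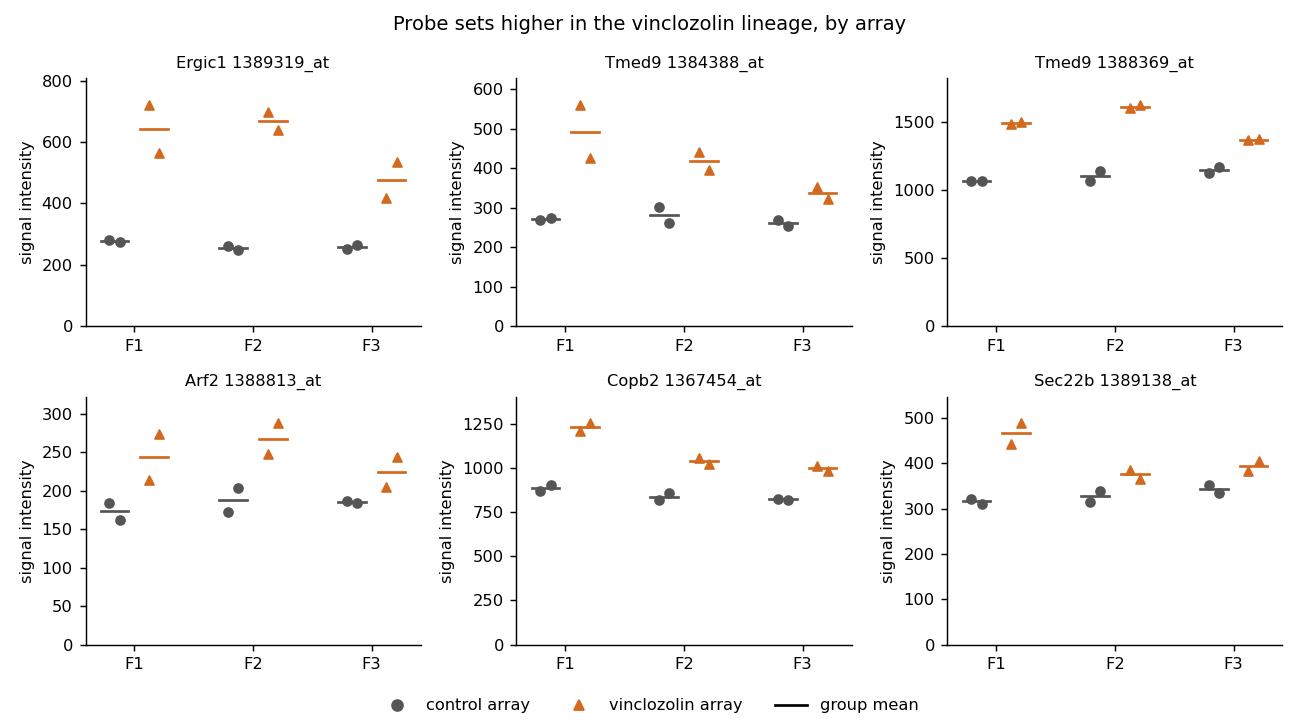
Signal on each of the 12 arrays (linear axis from 0) for probe sets that were higher in the vinclozolin lineage, by generation. Each point is an array and each line a group mean. For Ergic1 the 6 vinclozolin arrays sit between 418 and 720, and all 6 control arrays at 279 or below.

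The p24 proteins are small membrane receptors that collect cargo, such as lipid-anchored proteins, at ER exit and bind both coats. Of 15 probe sets of 10 genes, 13 were tested. In F1, 3 were higher (both of Tmed9 and that of Tmed1) and 2 lower. In F2 2 were higher and 1 lower, and in F3 none was called. Of all probe sets tested, 9.41% were higher and 13.7% lower in F1, and 4.7% and 9.65% in F2.

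In F1 and in F2, Tmed9 was the sole gene with several tested probe sets that were all called in 1 direction. Its dimmer probe set, 1384388_at, gave 269 and 275 on the F1 control arrays, 302 and 261 on those of F2 and 268 and 253 on those of F3. On the vinclozolin arrays the signal was 560 and 425 in F1, 439.7 and 395 in F2 and 352 and 323 in F3. All 6 of these lay above all 6 controls. The differences were 0.81 ± 0.12 in F1 (adjusted p = 0.000321), 0.54 ± 0.12 in F2 (adjusted p = 0.00895) and 0.35 ± 0.12 in F3 (adjusted p = 0.134). The brighter probe set, 1388369_at, gave 1069.6 and 1070.5 on the F1 control arrays, 1066 and 1140.2 on those of F2 and 1126 and 1174 on those of F3, and 1489.8 and 1503 in F1, 1602 and 1627 in F2 and 1369.8 and 1373 in F3 in the vinclozolin lineage. Here too the lineages did not overlap. The differences were 0.48 ± 0.07 in F1 (adjusted p = 0.000379), 0.54 ± 0.07 in F2 (adjusted p = 0.000313) and 0.25 ± 0.07 in F3 (adjusted p = 0.0826). The F2 call of 1384388_at was lost without F2-Control replicate 2 (0.45, adjusted p = 0.106) or F2-Vinclozolin replicate 1 (0.47, adjusted p = 0.0589). Tmed1 gave 139 and 139 on the F1 control arrays, 155 and 136 on those of F2 and 157 and 143 on those of F3. On the vinclozolin arrays it gave 217 and 220.1 in F1, 169 and 167 in F2 and 159 and 155 in F3. The lineages did not overlap in F1 and F2 and overlapped in F3, and the differences were 0.59 ± 0.11 in F1 (adjusted p = 0.0012), 0.19 ± 0.11 in F2 (adjusted p = 0.268) and 0.06 ± 0.11 in F3 (adjusted p = 0.81).

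Tmed2 and Tmed7 each had 1 probe set with a large decrease and 1 brighter probe set without a call. Tmed2 is a p24 member needed for embryonic development in mice. Its probe set 1398824_at gave 605 and 613 on the F1 control arrays, 632 and 627 on those of F2 and 736 and 548 on those of F3. The vinclozolin lineage gave 226 and 169 in F1, 357 and 259.7 in F2 and 727 and 614 in F3. They were below the controls in F1 and F2, and within the control range in F3. The differences were -1.56 ± 0.16 in F1 (adjusted p = 1.41e-05), -1.01 ± 0.16 in F2 (adjusted p = 0.00087) and 0.07 ± 0.16 in F3 (adjusted p = 0.867). The second Tmed2 probe set, 1389940_at, ran from 934 to 1316 over the 12 arrays with differences of -0.12, -0.12 and 0.16, none called. For Tmed7, probe set 1390152_at was dim, with 62.7 and 70.3 on the F1 control arrays, 68.3 and 56.1 on those of F2 and 53.8 and 33.5 on those of F3. In the vinclozolin lineage the signal was 3.9 and 10.4 in F1, 46.4 and 21.8 in F2 and 45.1 and 35.3 in F3. The F1 arrays were the lowest, below the signal of 14.8 under which probe sets were left out by their mean, and F3 overlapped the controls. The differences were -1.85 ± 0.24 in F1 (adjusted p = 9.01e-05), -0.68 ± 0.24 in F2 (adjusted p = 0.0707) and -0.07 ± 0.24 in F3 (adjusted p = 0.914). The size of the F1 value rests on the constant added before the log, being -2.72 with 4 and -0.88 with 64 in place of 16, called with both. The brighter Tmed7 probe set, 1373862_at, ran from 555 to 713 with differences of 0.09, -0.17 and 0.03, none called. Of the other p24 genes, Tmed3 was called only for the mean of the 3 generations (0.21 ± 0.07, adjusted p = 0.0219), and Tmed10, Tmed4 (2 probe sets), Tmed5 and Tmed8 were not called in any generation.

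**Figure D3:**
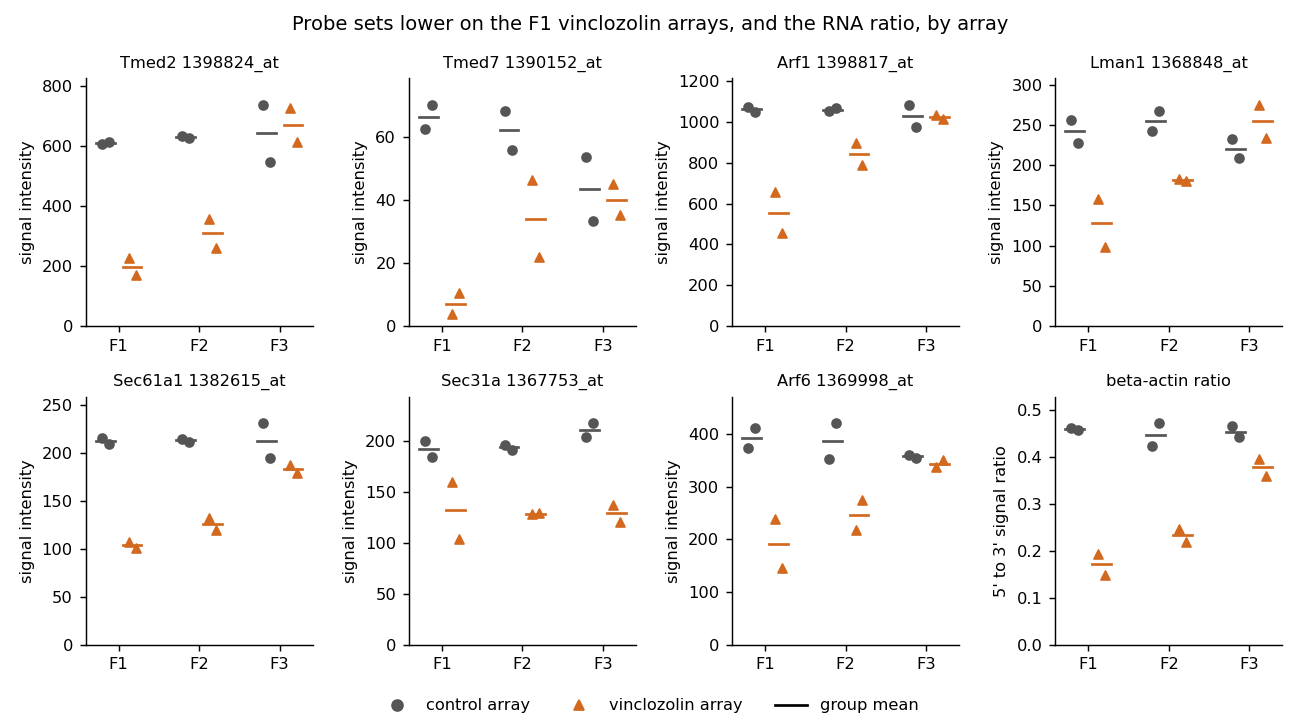
Signal on each of the 12 arrays (linear axis from 0) for probe sets that were lower on the F1 vinclozolin arrays, with the beta-actin 5' to 3' ratio on the same arrays. Each point is an array and each line a group mean. The vinclozolin arrays of Tmed2 lie below the controls in F1 and F2 and among them in F3, and the ratio is lowest in F1.

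The Arf GTPases recruit coats to membranes, Arf1 that of COPI, whereas Arf6 works at the cell surface. Of 9 tested probe sets, 1 was higher and 4 were lower in F1, 1 higher and 2 lower in F2, and none was called in F3. The shares of all probe sets were 9.41% higher and 13.7% lower in F1, and 4.7% and 9.65% in F2. Arf6 fell in F1 and F2. It gave 373 and 411 on the F1 control arrays, 352 and 419.9 on those of F2 and 361 and 354 on those of F3. The vinclozolin arrays gave 238 and 145 in F1, 217 and 274 in F2 and 337 and 349.8 in F3. In every generation they were below the controls, by little in F3. The differences were -1.01 ± 0.17 in F1 (adjusted p = 0.000638), -0.62 ± 0.17 in F2 (adjusted p = 0.0231) and -0.06 ± 0.17 in F3 (adjusted p = 0.9). The F2 call was lost without F2-Control replicate 1 (-0.75, adjusted p = 0.0568), F2-Control replicate 2 (-0.50, adjusted p = 0.185) or F2-Vinclozolin replicate 1 (-0.46, adjusted p = 0.154).

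Arf1 had 1 probe set that fell. Probe set 1398817_at gave 1074 and 1049.9 on the F1 control arrays, 1054 and 1066 on those of F2 and 1083 and 977 on those of F3. Its vinclozolin arrays read 657 and 455 in F1, 897 and 788 in F2 and 1034 and 1013 in F3. They were lower in F1 and F2, and overlapped the controls in F3. The differences were -0.94 ± 0.13 in F1 (adjusted p = 0.000134), -0.33 ± 0.13 in F2 (adjusted p = 0.102) and -0.01 ± 0.13 in F3 (adjusted p = 0.986). The other Arf1 probe set, 1367459_at, was brighter, at 2176 to 2635, with differences of -0.12, -0.08 and 0.12, none called. Arf3 showed the same arrangement. Its dim probe set 1387447_at gave 89.8 and 89.2 on the F1 control arrays, 88.9 and 85.4 on those of F2 and 89.1 and 59.3 on those of F3, and 43.6 and 36.7 in F1, 50.8 and 47.8 in F2 and 63.5 and 49.9 in F3 in the vinclozolin lineage. F1 and F2 were below the controls and F3 overlapped them. The differences were -0.91 ± 0.17 in F1 (adjusted p = 0.00122), -0.66 ± 0.17 in F2 (adjusted p = 0.0162) and -0.30 ± 0.17 in F3 (adjusted p = 0.37), against 0.20, 0.08 and 0.00 at the brighter 1388997_at, none called. Without F2-Control replicate 1, F2-Control replicate 2 or F2-Vinclozolin replicate 2, the F2 difference of 1387447_at was -0.64, -0.68 or -0.63 and lost its call (adjusted p = 0.106, 0.0786 and 0.103). With 64 in place of 16 added before the log, its F1 and F2 differences were -0.56 and -0.42, both called.

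The 2 tested probe sets of Arf2 went opposite ways. The brighter, 1388813_at, gave 185 and 162 on the F1 control arrays, 173 and 204 on those of F2 and 187 and 184 on those of F3. On the vinclozolin arrays the signal was 214 and 274 in F1, 248 and 288 in F2 and 206 and 244 in F3, all above all controls. The differences were 0.45 ± 0.14 in F1 (adjusted p = 0.0271), 0.48 ± 0.14 in F2 (adjusted p = 0.0299) and 0.25 ± 0.14 in F3 (adjusted p = 0.347). Its F1 call was lost without F1-Control replicate 1 (0.54, adjusted p = 0.0560), F1-Control replicate 2 (0.36, adjusted p = 0.200) or F1-Vinclozolin replicate 2 (0.28, adjusted p = 0.192). Its F2 call was lost without F2-Control replicate 1 (0.36, adjusted p = 0.242), F2-Control replicate 2 (0.59, adjusted p = 0.0588) or F2-Vinclozolin replicate 2 (0.37, adjusted p = 0.222). The dimmer Arf2 probe set, 1368946_at, had differences of -0.61 ± 0.17 in F1 (adjusted p = 0.0184), -0.42 ± 0.17 in F2 (adjusted p = 0.12) and -0.01 ± 0.17 in F3 (adjusted p = 0.99). Arf4 was called only for the mean of the 3 generations (-0.16 ± 0.05, adjusted p = 0.0165), and Arf5 not at all.

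The coatomer is the coat of COPI vesicles. Of its 11 probe sets, 4 were higher and 2 lower in F1, 1 higher and 1 lower in F2, and none was called in F3. Among all probe sets tested, 9.41% were higher and 13.7% lower in F1, and 4.7% and 9.65% in F2. Copb2, the beta-prime subunit that binds retrieval signals, gave 873 and 906 on the F1 control arrays, 822 and 857 on those of F2 and 827 and 819.8 on those of F3. The vinclozolin lineage gave 1210.2 and 1254 in F1, 1056 and 1022 in F2 and 1012 and 986 in F3. All of them were above all control arrays. The differences were 0.46 ± 0.08 in F1 (adjusted p = 0.0006), 0.30 ± 0.08 in F2 (adjusted p = 0.0166) and 0.27 ± 0.08 in F3 (adjusted p = 0.0675). The F2 call was lost without any 1 of the 4 F2 arrays, at adjusted p = 0.137 and 0.0701 without F2-Control replicates 1 and 2, and 0.0656 and 0.0630 without F2-Vinclozolin replicates 1 and 2. The F1 rise was also seen for Cope, the epsilon subunit (0.30 ± 0.09), 1 probe set of Copg2, a gamma subunit (0.40 ± 0.11), and 1 of Copz1, a zeta subunit (0.27 ± 0.09).

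Copz1 also had the coatomer probe set with the largest decrease. Probe set 1394565_at gave 410.1 and 432 on the F1 control arrays, 426 and 399.7 on those of F2 and 395 and 382 on those of F3. In the vinclozolin lineage the signal was 276 and 227 in F1, 298 and 284 in F2 and 381 and 341 in F3, below the controls of each generation, by little in F3. The differences were -0.71 ± 0.11 in F1 (adjusted p = 0.000251), -0.48 ± 0.11 in F2 (adjusted p = 0.00745) and -0.10 ± 0.11 in F3 (adjusted p = 0.661). Its F2 call was lost without F2-Control replicate 1 (-0.44, adjusted p = 0.0824) or F2-Vinclozolin replicate 2 (-0.45, adjusted p = 0.0668). Copa, the alpha subunit, fell in F1 (-0.38 ± 0.08, adjusted p = 0.00215), with uncalled values of 0.06 and 0.00 in F2 and F3. No call was made for Copb1, Copz2, either probe set of Copg1 or the second probe set of Copg2. The 6 genes whose promoters hold the UPRE had no common direction in F1. Copb2 was higher, Copa and 1 of 2 Arf1 probe sets were lower, and Arf4, Copb1 and Kdelr3 were not called (-0.23, 0.12 and 0.15).

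Most calls in the COPII coat were decreases. Of its 15 probe sets none was higher and 5 were lower in F1. In F2 1 was higher and 4 were lower, and in F3 1 was lower. Lower calls also outnumbered higher ones over the whole array. The shares were 13.7% lower against 9.41% higher in F1, 9.65% against 4.7% in F2 and 2.06% against 1.05% in F3. Whether the COPII counts differ from these shares was not tested. The difference in direction from the coatomer was not tested. Sec31a, a subunit of the outer cage, was lower in all generations at 1 of its 2 probe sets. Probe set 1367753_at gave 199.8 and 184 on the F1 control arrays, 197 and 191 on those of F2 and 204 and 217 on those of F3. The vinclozolin arrays gave 160.1 and 104 in F1, 128 and 129 in F2 and 137 and 121 in F3. All 6 were below all 6 controls. The differences were -0.52 ± 0.15 in F1 (adjusted p = 0.0202), -0.54 ± 0.15 in F2 (adjusted p = 0.0252) and -0.65 ± 0.15 in F3 (adjusted p = 0.03). These calls were narrow. The F1 call was lost without F1-Control replicate 1 (-0.46, adjusted p = 0.133), F1-Control replicate 2 (-0.57, adjusted p = 0.0695) or F1-Vinclozolin replicate 2 (-0.24, adjusted p = 0.190), and without F1-Vinclozolin replicate 1 the value was -0.79. The F2 call was lost without any 1 of the 4 F2 arrays (adjusted p = 0.0793 to 0.139). The F3 call was lost without any 1 of the 4 F3 arrays (adjusted p = 0.0857 to 0.233) and without any 1 of the F1 or F2 control arrays (adjusted p = 0.0509 to 0.0530). The mean of the 3 generations was -0.57 ± 0.09 (adjusted p = 0.000152). The second Sec31a probe set, 1377087_at, was dim (15.8 to 41.0) and had differences of 0.50, 0.49 and -0.04, none called.

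Sec24 proteins are the cargo-binding part of the inner coat. The signals of their probe sets were lower where they were called. Sec24d gave 352 and 343 on the F1 control arrays, 362 and 348 on those of F2 and 350 and 346 on those of F3. Its vinclozolin arrays read 237 and 166 in F1, 265 and 238 in F2 and 376 and 321 in F3. F1 and F2 were below the controls and F3 overlapped them. The differences were -0.76 ± 0.13 in F1 (adjusted p = 0.000939), -0.47 ± 0.13 in F2 (adjusted p = 0.0282) and 0.00 ± 0.13 in F3 (adjusted p = 0.995), and the F2 call was lost without F2-Control replicate 1 (-0.44, adjusted p = 0.159), F2-Control replicate 2 (-0.50, adjusted p = 0.110) or F2-Vinclozolin replicate 2 (-0.40, adjusted p = 0.192). Sec24b fell at a different probe set in each of F1 and F2. Probe set 1392211_at gave 91.6 and 95.3 on the F1 control arrays, 105 and 98.1 on those of F2 and 111 and 107 on those of F3, and 112 and 79.7 in F1, 72.9 and 64.9 in F2 and 90.6 and 74.1 in F3 in the vinclozolin lineage. F2 and F3 were below the controls and F1 overlapped them. The differences were 0.02 ± 0.15 in F1 (adjusted p = 0.947), -0.47 ± 0.15 in F2 (adjusted p = 0.0493) and -0.35 ± 0.15 in F3 (adjusted p = 0.226), and those of the other, 1389455_at, were -0.46 ± 0.14 in F1 (adjusted p = 0.0312), -0.23 ± 0.14 in F2 (adjusted p = 0.322) and -0.11 ± 0.14 in F3 (adjusted p = 0.753). The F2 call of 1392211_at was lost without any 1 array except F1-Vinclozolin replicates 1 and 2 (adjusted p = 0.0522 to 0.238). Sec24c fell at the dimmer of its 2 probe sets in F1 (-0.61 ± 0.16, adjusted p = 0.0114). At the brighter, 1367474_at, the differences were 0.12, 0.22 and -0.05, none called.

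Sar1a, a GTPase that starts the COPII coat, had opposite calls in F2. Probe set 1367470_at gave 904 and 891 on the F1 control arrays, 866 and 909 on those of F2 and 877 and 909.9 on those of F3. On the vinclozolin arrays the signal was 1017 and 1069 in F1, 1139.6 and 1183 in F2 and 929.7 and 959.9 in F3, all above all controls. The differences were 0.21 ± 0.08 in F1 (adjusted p = 0.0614), 0.38 ± 0.08 in F2 (adjusted p = 0.00462) and 0.08 ± 0.08 in F3 (adjusted p = 0.648), and the F2 call was lost without F2-Control replicate 1 (0.35, adjusted p = 0.0636). At 1398353_at, of similar brightness (653 to 924), they were -0.13 ± 0.09 in F1 (adjusted p = 0.346), -0.37 ± 0.09 in F2 (adjusted p = 0.0137) and 0.00 ± 0.09 in F3 (adjusted p = 0.995). Sec16a, the scaffold of ER exit sites, fell at the dimmer of its 2 probe sets in F1 (-0.55 ± 0.12, adjusted p = 0.00467). The brighter, 1398959_at, had 0.15, 0.20 and -0.15 in F1, F2 and F3, none called. Sar1b, Sec13 of the outer cage, Sec16b and Sec23b of the inner coat were not called in any generation.

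At the other end of the route, Sec61a2, an alpha subunit of the channel, rose in F1 and F2. It gave 401 and 465 on the F1 control arrays, 446 and 367 on those of F2 and 395 and 416 on those of F3. The vinclozolin lineage gave 582 and 676 in F1, 507 and 576 in F2 and 403 and 384 in F3. They were above the controls in F1 and F2, and overlapped them in F3. The differences were 0.52 ± 0.12 in F1 (adjusted p = 0.00457), 0.40 ± 0.12 in F2 (adjusted p = 0.0299) and -0.04 ± 0.12 in F3 (adjusted p = 0.889). The F1 call was lost without F1-Control replicate 1 (0.42, adjusted p = 0.0729), and the F2 call without F2-Control replicate 2 (0.27, adjusted p = 0.278) or F2-Vinclozolin replicate 2 (0.32, adjusted p = 0.226). The main alpha subunit, Sec61a1, fell at probe set 1382615_at, with 215 and 209.8 on the F1 control arrays, 215 and 211 on those of F2 and 231 and 195 on those of F3. In the vinclozolin lineage the signal was 107 and 100.5 in F1, 132 and 119.6 in F2 and 188 and 179 in F3, below the controls of every generation. The differences were -0.93 ± 0.11 in F1 (adjusted p = 4.84e-05), -0.69 ± 0.11 in F2 (adjusted p = 0.000992) and -0.19 ± 0.11 in F3 (adjusted p = 0.392). At the brighter Sec61a1 probe set 1371368_at they were 0.06, 0.22 and 0.03, none called.

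Sec62, which serves the import of short precursors, rose in F1 at probe set 1374188_at. It gave 851 and 843 on the F1 control arrays, 865 and 919 on those of F2 and 937 and 1024 on those of F3. The vinclozolin arrays gave 1082 and 1379 in F1, 1049.8 and 1045 in F2 and 868 and 1017 in F3. Only F1 and F2 lay above the controls. The differences were 0.52 ± 0.11 in F1 (adjusted p = 0.00317), 0.23 ± 0.11 in F2 (adjusted p = 0.182) and -0.06 ± 0.11 in F3 (adjusted p = 0.832), and at the other Sec62 probe set, 1398970_at, 0.03, 0.22 and 0.06, none called. Sec61g, the gamma subunit, rose in F1 (0.40 ± 0.12, adjusted p = 0.0311). Its partner Sec61b, the signal peptidase subunits Sec11a and Sec11c and the 3 tested probe sets of Sec63 were not called in any generation, although Sec11a (higher) and 2 probe sets of Sec63 (lower) were called for the mean of the 3 generations.

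Sec22b, a SNARE that lets ER and Golgi vesicles fuse, again had 2 probe sets with opposite calls in F1. Probe set 1389138_at gave 322 and 309.7 on the F1 control arrays, 315 and 338 on those of F2 and 351 and 334 on those of F3. Its vinclozolin arrays read 443 and 488 in F1, 386 and 365 in F2 and 382 and 405 in F3, all above all controls. The differences were 0.54 ± 0.09 in F1 (adjusted p = 0.000922), 0.19 ± 0.09 in F2 (adjusted p = 0.198) and 0.19 ± 0.09 in F3 (adjusted p = 0.3). The slightly dimmer 1377691_at had -0.43 ± 0.10 in F1 (adjusted p = 0.0062), -0.28 ± 0.10 in F2 (adjusted p = 0.0777) and 0.12 ± 0.10 in F3 (adjusted p = 0.582). Its relatives Sec22a and Sec22c (3 probe sets) were not called. Among the Sec14-like genes, no probe set of Sec14l1 or Sec14l2 was called in a generation. A dim probe set of Sec14l1, 1397334_at, was called for the mean of the 3 generations (-0.46 ± 0.12, adjusted p = 0.00771). It gave 22.2 and 20.4 on the F1 control arrays, 18.1 and 21.7 on those of F2 and 26.3 and 18.2 on those of F3, and 11.6 and 11.8 in F1, 16.7 and 9.8 in F2 and 10.1 and 6.6 in F3 in the vinclozolin lineage. All vinclozolin arrays were below all controls. The call was lost without the F3 generation (-0.37, adjusted p = 0.0669), and the value was -0.76 with 4 and -0.18 with 64 added before the log, called with both. The brighter Sec14l1 probe set, 1388334_at, had 0.01 ± 0.07 for that mean.

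These disagreements between probe sets of 1 gene had an order of brightness. Of 22 genes with several tested probe sets, 3 had calls in both directions in F1 (Arf2, Copz1 and Sec22b), 11 had called and uncalled probe sets, 1 (Tmed9) was called throughout and 7 had no call. Among the brightest probe sets of these 22 genes, 6 were higher and 2 lower in F1, with a median difference of 0.11. Among their 24 other probe sets 1 was higher and 10 were lower, with a median of -0.36. The 32 genes with 1 tested probe set had 6 higher and 4 lower, with a median of 0.14. In genes with exactly 2 tested probe sets, the brighter had the higher F1 difference in 16 of 20 members (80.0%), and in 1706 of 2367 genes of the whole array (72.1%). The shares were 80.0% and 70.0% in F2 and 70.0% and 62.4% in F3. The median gap between the brighter and the dimmer was 0.72 for members and 0.41 for all in F1. The same order was thus present over the whole array. The beta-actin ratio, which compares the ends of 1 transcript, differed between the lineages in the same generations (0.171 in F1 against 0.459 in its controls, and 0.378 against 0.453 in F3), and its part in the gaps was not tested. With only the brightest probe set of each gene kept, 18 of 54 genes were called in F1, 12 higher and 6 lower. The share and split of all genes kept in the same way are not given here. Whether the members differ from them was not tested, so this count describes the members only.

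**Figure D4:**
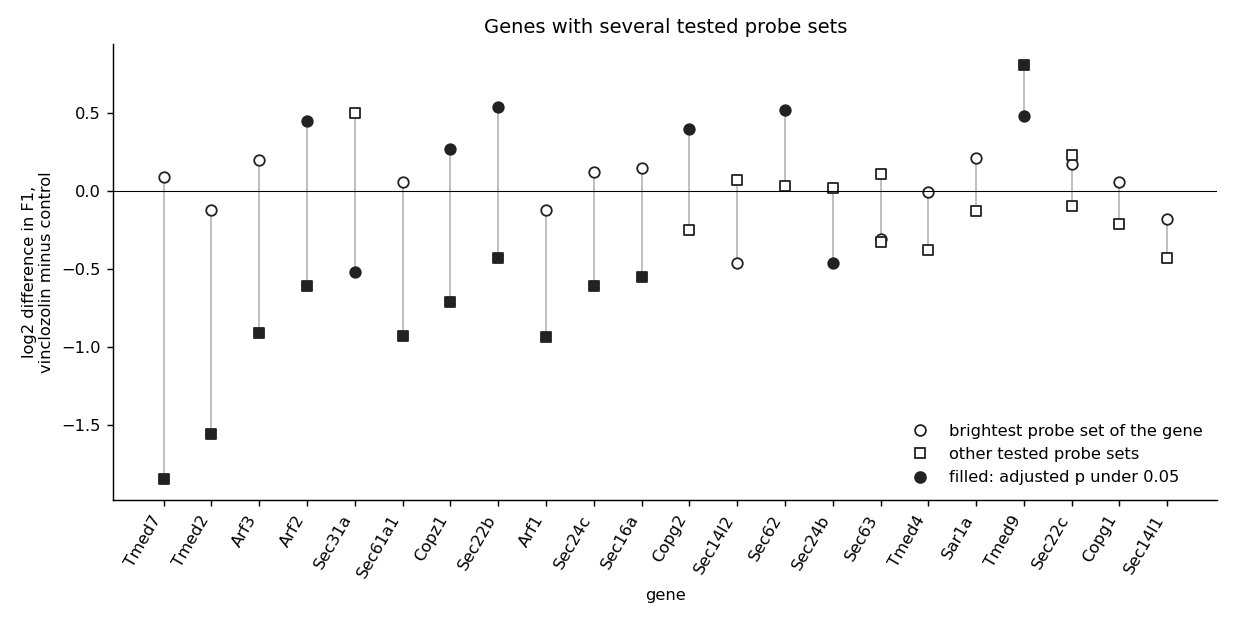
F1 log2 differences (vinclozolin minus control) of the member genes with several tested probe sets. Each point is a probe set, with the brightest of each gene marked. Filled points were called. The brightest probe set has the highest difference of its gene in 16 of 22 genes.

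Whether a difference depended on generation was tested with an F test on the 3 differences. It called 5 of 78 members, where 2.6% of all probe sets were called: Tmed2 (adjusted p = 0.00454), Tmed7 (adjusted p = 0.0244), Arf1 (adjusted p = 0.0279), Lman1 (adjusted p = 0.0446) and Sec61a1 (adjusted p = 0.0446), each at the probe set that fell in F1. In all 5 the F3 difference was above the F1 difference, from 0.74 ± 0.16 for Sec61a1 (adjusted p = 0.0162) to 1.78 ± 0.34 for Tmed7 (adjusted p = 0.00854). For Tmed2 that gap was 1.63 ± 0.23 (adjusted p = 0.00155), and F3 was also 1.08 ± 0.23 above F2 (adjusted p = 0.0491). The Tmed2 call was kept in each of the 12 fits that left out 1 array, with adjusted p up to 0.0463. The calls of Tmed7, Arf1, Sec61a1 and Lman1 were kept in 7, 4, 3 and 2 of these fits. All of these 4 were lost without F1-Control replicate 1 or 2, F3-Control replicate 2 or F3-Vinclozolin replicate 1 or 2, with adjusted p up to 0.136, 0.151, 0.30 and 0.240. Those of Arf1, Sec61a1 and Lman1 were also lost without F2-Control replicate 1 or 2 or F3-Control replicate 1, those of Sec61a1 and Lman1 without F2-Vinclozolin replicate 2, and that of Lman1 without F2-Vinclozolin replicate 1. The count of 5 was 22 without F1-Vinclozolin replicate 1 and 10 without F1-Vinclozolin replicate 2. It was 1 to 3 without any 1 control array, any 1 F3 vinclozolin array or F2-Vinclozolin replicate 2. With only the brightest probe set of each gene kept, no member was called by this limma F test, and 15 of 54 had an unadjusted p under 0.05. Ergic1 showed no call for dependence on generation (adjusted p = 0.269).

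Outside the named families, 198 tested probe sets of 138 other genes of the secretory route were read from lists of known components. In F1, 22 were higher and 47 lower (34.8% called, against 23.1% of all probe sets tested). In F2 the counts were 16 and 25 (20.7%, against 14.3%), and in F3 6 and 5 (5.56%, against 3.11%). The medians were -0.04, -0.06 and -0.01. By direction, 9.41% of all were higher and 13.7% lower in F1, 4.7% and 9.65% in F2 and 1.05% and 2.06% in F3. Whether these lists differ from those shares was not tested. Among 22 probe sets of SNAREs and their regulators, 2 were higher and 7 lower in F1. Nsf, the ATPase that takes SNARE complexes apart, fell in F1 at 2 of 3 probe sets (-1.32 ± 0.14 in F1 (adjusted p = 2.3e-05) at 1369690_at), with -0.34 ± 0.20 at the third, not called. The Golgi SNARE Gosr1 rose in F1, F2 and F3 at 1 of 3 probe sets, 1369410_at. The differences were 0.58 ± 0.14 in F1 (adjusted p = 0.0091), 0.61 ± 0.14 in F2 (adjusted p = 0.0106) and 1.04 ± 0.14 in F3 (adjusted p = 0.00147). The other Gosr1 probe sets, not called in any generation, had -0.06 ± 0.16 and 0.22 ± 0.15 in F3. Among 41 probe sets of oligosaccharyltransferase, the TRAP complex and signal recognition, 9 were higher and 10 lower in F1. Tram1, which helps chains into the channel, was lower at its dim probe set (-1.29 ± 0.19 in F1 (adjusted p = 0.000213)) and less so at the brighter one (-0.31 ± 0.08 in F1 (adjusted p = 0.0131)). Ssr3 of the TRAP complex rose at 1 probe set (1.16 ± 0.13 in F1 (adjusted p = 2.18e-05)), fell at another (-0.91 ± 0.18 in F1 (adjusted p = 0.00249)) and was not called at the brightest (0.16 ± 0.10).

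The counts of the lists that follow are for F1, where 9.41% of all probe sets tested were higher and 13.7% lower. Of 27 probe sets of ER folding enzymes, 5 were higher and 6 lower in F1. The lectin chaperone Canx fell at its dimmest probe set (-1.57 ± 0.17 in F1 (adjusted p = 2.23e-05)), rose at its brightest (0.40 ± 0.08 in F1 (adjusted p = 0.00268)) and was not called at the other (-0.22 ± 0.08). The chaperone Hyou1 fell at both probe sets (-1.04 ± 0.27 and -0.70 ± 0.14, adjusted p = 0.0122 and 0.00186). The prolyl isomerase Fkbp2 rose at 2 of 3 probe sets (0.92 ± 0.11 in F1 (adjusted p = 4.46e-05) at 1375669_at). Of 25 probe sets of exchange and activating factors of Arf and Sar1, none was higher and 4 were lower. The Arf exchange factor Cyth3 was at -1.41 ± 0.20 in F1 (adjusted p = 0.00021) at a dim probe set, and at -0.17 ± 0.13 at the brighter one, not called. Of 26 probe sets of exit site organisers and cargo adaptors, 3 were higher and 7 lower. Scap, the escort of SREBP, fell at both probe sets, the dim one (-1.11 ± 0.20 in F1 (adjusted p = 0.00094)) and the brighter one (-0.55 ± 0.14 in F1 (adjusted p = 0.00857)). Of 47 probe sets of tethers and Rab GTPases, 2 were higher and 11 lower. The Golgi GTPase Rab6a fell at both probe sets, by most at the dimmer (-0.96 ± 0.16 in F1 (adjusted p = 0.00048) against -0.34 ± 0.10 in F1 (adjusted p = 0.0177)). Of 10 probe sets of transcription factors of the secretory and unfolded protein programme, 1 was higher, Ddit3 (0.70 ± 0.16 in F1 (adjusted p = 0.00492)), and 2 were lower, Atf6b (-0.63 ± 0.13 in F1 (adjusted p = 0.00235)) and Creb3l1 (-0.44 ± 0.12 in F1 (adjusted p = 0.0131)).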

How the data were processed

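Each array was hybridised with biotin-labelled RNA extracted with Trizol, per the labels' protocols. The authors deposited 1 linear signal intensity per probe set and array, from 0 to 9534.9. Which software summarised the probes is not given in the sources used here. Detection calls were not used. The trimmed mean was 125.03 on every array, so the values had been scaled before deposit and were used as they stand. Values were taken as log2(signal + 16), which understates changes of dim probe sets. Left out were 57 control probe sets and the 30% of the rest with the lowest mean (9313 probe sets, signal below 14.8), which kept 21729 for testing.

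In limma 3.58.1 (R 4.3.3), lmFit estimated the 6 group means from the 12 arrays together and eBayes moderated the variances along a trend, on 6 residual plus 8.97 prior degrees of freedom. Contrasts were vinclozolin minus control per generation, their mean, and an F test for dependence on generation. Calls needed a Benjamini-Hochberg adjusted p under 0.05. With 2 arrays against 2, an exact permutation test cannot go below p = 0.333, so it cannot call a difference within a single generation. The main fit therefore used a variance shared by all groups, and limma fits of each generation alone were run as alternatives. The number of arrays, 2 a group, limits the precision. The pooled variance covers unequal groups: the members' SD between the arrays was 0.217 in F1-Vinclozolin and 0.085 in F1-Control (log2). The scripts were tested on simulated data.

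Probe sets were named from the platform annotation: 20826 had 1 symbol, 436 several and 9780 none. The rat gene table of RefSeq held all 56 member genes. Members, roles and the lists of other pathway genes and of cell type markers were chosen with earlier results of these data known. Values on every array are given for up to 8 members with the highest and 8 with the lowest difference per generation (called, groups not overlapping), up to 6 each way for the mean (called, 1 sign in all generations) and up to 6 for the F test; for a role with none of these, for the probe set with the smallest p of the mean contrast; in the other lists, up to 3 called genes by size could be named. Alternatives were other pseudocounts, no filter, 3 between-array normalizations, the brightest probe set per gene, no trend, array weights, the replicate number as a block, the beta-actin ratio as a covariate, each generation alone or left out, and each array left out.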

Additional observations from a re-analysis of the deposited data

Results flagged for a closer look

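At 5 probe sets the difference between the lineages depended on generation by limma's F test, with an adjusted p of 0.00454 for Tmed2 (1398824_at), 0.0244 for Tmed7 (1390152_at), 0.0279 for Arf1 (1398817_at), 0.0446 for Lman1 (1368848_at) and 0.0446 for Sec61a1 (1382615_at). Each was lower in the F1 vinclozolin testes and nearer to its controls in F3, with F1 differences of -1.56, -1.85 (between -2.72 and -0.88 with other pseudocounts), -0.94, -0.87 and -0.93 and F3 differences of 0.07, -0.07, -0.01, 0.19 and -0.19. The beta-actin 5' to 3' ratio of the same vinclozolin arrays was 0.171 in F1 and 0.378 in F3, against 0.459 and 0.453 in their controls, and its part in these values was not tested. The Gapdh ratio was 0.651 and 0.718 in F1 and within the control range in F3. For Tmed2, Tmed7, Arf1 and Sec61a1 a brighter probe set of the gene was not called in any generation.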

How the results depend on the processing

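The counts of called members were 29 in F1, 16 in F2, 2 in F3, 37 for the mean of the generations and 5 for dependence on generation. Both other pseudocounts, quantile and cyclic loess normalization and a filter on the lowest 50% kept each of these counts within 1.5 times. Without the filter, 1 was called in F3 and 1 for dependence on generation. With median centring, 3 were called for dependence on generation. With the brightest probe set of each gene, the counts were 18 in F1, 9 in F2, 22 for the mean and 0 for dependence. Without the trend they were 8 in F2, 1 in F3 and 1 for dependence, and with array weights 7 in F3 and 8 for dependence. The F1 arrays alone called 17, the F3 arrays alone 6, and the mean without the F1 generation 15. With each array left out in turn, the counts ran from 18 to 41 in F1, 6 to 29 in F2, 0 to 6 in F3, 29 to 48 for the mean and 1 to 22 for dependence.

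With the replicate number as a block, the counts were 29, 17, 2, 38 and 5. The numbers did not pair the samples: the deviations of same-numbered arrays correlated between -0.093 and 0.068 over 15 pairs of groups.

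With the beta-actin ratio as a covariate, limma called 0 members in F1, F2, F3, the mean and the test of dependence, with 2, 4, 6, 3 and 7 members at an unadjusted p under 0.05. The 6 groups accounted for 97.9% of the variance of the ratio, and the median standard error of the members rose from 0.115 to 0.570 in F1, 0.429 in F2 and 0.184 in F3, and from 0.0665 to 0.379 for the mean. Differences that changed sign in F1 were those of Sec61a2 (-0.65), Sec62 (-0.40), Tmed2 (0.43), Arf6 (0.25), Arf1 (0.47), Arf3 (0.30), Lman1 (1.07), Sec24d (0.54), Arf2 (-0.25) and Sec31a (0.61). In F2 they were those of Sec61a2 (-0.46), Tmed2 (0.47), Arf6 (0.31), Arf3 (0.24), Sec24d (0.49), Arf2 (-0.05), Sec31a (0.29) and Sec24b (0.42). For the mean they were those of Sec61a2 (-0.49), Sec62 (-0.39), Tmed2 (0.50), Arf6 (0.28), Arf1 (0.52), Arf3 (0.18), Lman1 (0.92), Sec24d (0.46), Arf2 (-0.08), Sec31a (0.18), Sec24b (0.53) and Sec14l1 (0.43). The causes of these changes were not tested. With 2 pools in each group and an RNA measure that follows the groups, lineage and RNA quality cannot be told apart here.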
